A study of Mus musculus with 19 samples.

Results

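The 28 genes described here encode enzymes that make cholesterol and fatty acids and the proteins that control them. They were taken by gene symbol from the 49089 genes of an endometrial RNA-seq count table, and each symbol matched a single entry. By role, 7 act in the mevalonate steps, 3 in the squalene and lanosterol steps, 8 in the steps from lanosterol to cholesterol, 4 in sterol sensing and 6 in fatty acid synthesis. Cholesterol is built from acetyl-CoA through mevalonate, isoprenoids, squalene and lanosterol. When sterols in the endoplasmic reticulum run low, Scap carries the SREBP transcription factors (encoded by Srebf1 and Srebf2) to the Golgi for cleavage, and the released factors switch on these enzymes, while Insig1 holds the complex back when sterols are plentiful. In the uterus, estrogen makes the lining epithelium grow around ovulation, and progesterone then prepares the tissue for implantation.

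Endometrium was separated from the myometrium of WT C57Bl/6 females aged 8 to 14 weeks, and each library came from a pool of tissue whose number of animals is not given in the sources used here. The 3 estrus libraries (replicates 1, 2 and 4, columns CONT) came from untreated, unmated females in estrus. In the 4 INT libraries the females had mated with unoperated Balb/c males and were taken at 3.5 days pc. A further 12 libraries, from the same day and male strain, carry the column prefixes SVX, SVX_VAS and VAS, with 4 libraries each. For these the sample titles name another operation on the male than the prefix does (vasectomised for SVX, seminal vesicle-deficient for SVX_VAS, and seminal vesicle-deficient/vasectomised for VAS), so the groups are named here by prefix and no operation is assigned to them. No other agent is named for the females, which all had the same genotype. The comparison with estrus asks how the tissue of the peri-ovulatory phase differs from that just before implantation, and the comparison with INT asks whether the kind of male mattered. By the paper's methods, the estrus tissue was taken late in the evening, around ovulation, on the day that vaginal cells showed proestrus. Mated females were taken at noon, so time of day differed as well.

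Counted reads ranged from 15487788 to 31781270 per estrus library and from 12661266 to 20525568 per mated library. Levels are given as CPM, counts scaled to library size, after trimmed mean of M-values (TMM) scaling. Of all genes, 17222 reached 3 CPM in at least 3 libraries and were tested, and all 28 of the lipid genes were among them. VAS libraries 2 and 3 stood apart from the other 17 libraries: their TMM factors were 1.29 and 1.33 against 0.85 to 1.02, and 8 stromal markers summed to 2053 and 2242.5 CPM against 5711 to 10382 CPM. They also shared the largest scores on the principal component that carried 48.9% of the variance (188.9 and 189.6). The 8 fat cell markers summed to 6.84 to 8.42 CPM at estrus, 8.75 to 14.4 in INT, 9.5 to 11.5 in SVX, 8.21 to 11.5 in SVX_VAS and 2.38 to 11.0 in VAS, mostly from Plin4 (at most 11.03 CPM and the only one tested, called in no comparison), with Adipoq at 0 in 13 of 19 libraries and at most 0.684 CPM, and the blastocyst markers summed to at most 0.151 CPM.

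Most of the cholesterol synthesis genes were lower in mated endometrium than at estrus. Calls of the fatty acid synthesis genes went in both directions, in SVX and SVX_VAS at shares close to those of all genes. A gene was called when the false discovery rate (FDR) was at most 0.05 and the log2 fold-change (logFC) was at least 0.58 in size, by edgeR's quasi-likelihood test across all tested genes. In INT against estrus, 13 of the 28 genes fell, against a background of 12.7% of all tested genes lower, and 2 rose, against 20.9% higher. In SVX against estrus, 19 fell (background 18.5%) and 1 rose (background 23.1%). In SVX_VAS against estrus, 19 fell (background 16.5%) and 1 rose (background 22.2%). In VAS against estrus, 18 fell (background 17.3%) and 2 rose (background 23.3%). These 4 comparisons share the 3 estrus libraries, so they are not independent of each other. The count in INT depended on single libraries: 15 genes were called in either direction with all libraries (33.6% of all tested genes), 6 without estrus 1 (28.6% of all), 8 without INT 4 (29.5% of all), 9 without INT 3 (30.3% of all) and 20 without INT 1 (36.4% of all). Without estrus 1 the share of the 28 genes called in INT was thus below that of all genes, and without INT 3 or INT 4 it was close to it. With glmTreat, which tests against the size cutoff itself, 3 were called in INT, a share below the 19.4% of all tested genes called in that test, and 12 in VAS (25.1% of all). Without VAS 2 and 3, an alternative chosen after seeing the data, 12 genes were called in VAS (36.3% of all tested genes) in place of 20 (40.6% of all), and the calls of Hmgcs1, Idi1, Fdps, Sqle, Cyp51, Msmo1, Acly and Scd2 were lost there. Because the tissue is bulk, fewer cells of a type and less RNA per cell cannot be told apart.

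Among the 18 cholesterol synthesis enzymes, 11 fell in INT, 16 in SVX, 16 in SVX_VAS and 14 in VAS, and none rose in any of the 4. Of all tested genes, 12.7%, 18.5%, 16.5% and 17.3% were lower in these comparisons. Without estrus 1, 3 of the 18 enzymes fell in INT (28.6% of all tested genes called in either direction) and 9 in VAS (35.8% of all). Without INT 3 and without INT 4, 6 and 5 fell in INT (30.3% and 29.5% of all). Without VAS 2 and 3 together, 8 fell in VAS (36.3% of all). With a fit of the compared groups alone, 6 fell in INT (37.6% of all). With glmTreat, 2 fell in INT (19.4% of all) and 9 in VAS (25.1% of all). In INT, the 3 without estrus 1 and the 2 with glmTreat were thus shares below that of all genes called in either direction. The 5 and 6 were close to it. The share of all genes lower alone is not given for these fits, so the falls are not set against it. With all libraries in INT that share was 12.7%, against 33.6% in either direction. The median logFC of the 18 enzymes was -1.15 in INT, -1.76 in SVX, -1.59 in SVX_VAS and -1.36 in VAS. Over all tested genes, the median logFC lay between -0.072 and -0.0069 in the same comparisons. Among the 6 fatty acid synthesis genes, none fell and 2 rose in INT (12.7% of all tested genes lower and 20.9% higher). In SVX, 1 fell and 1 rose (18.5% and 23.1% of all). In SVX_VAS, 1 fell and 1 rose (16.5% and 22.2% of all). In VAS, 2 fell and 2 rose (17.3% and 23.3% of all). The shares in SVX and SVX_VAS were close to those of all genes. The median logFC of the 6 genes was -0.13 in INT, -0.14 in SVX, -0.13 in SVX_VAS and -0.27 in VAS. Of the 4 sterol sensing genes, Srebf2 and Insig1 fell in all 4 comparisons, and Srebf1 and Scap passed both cutoffs in none.

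**Figure D1:**
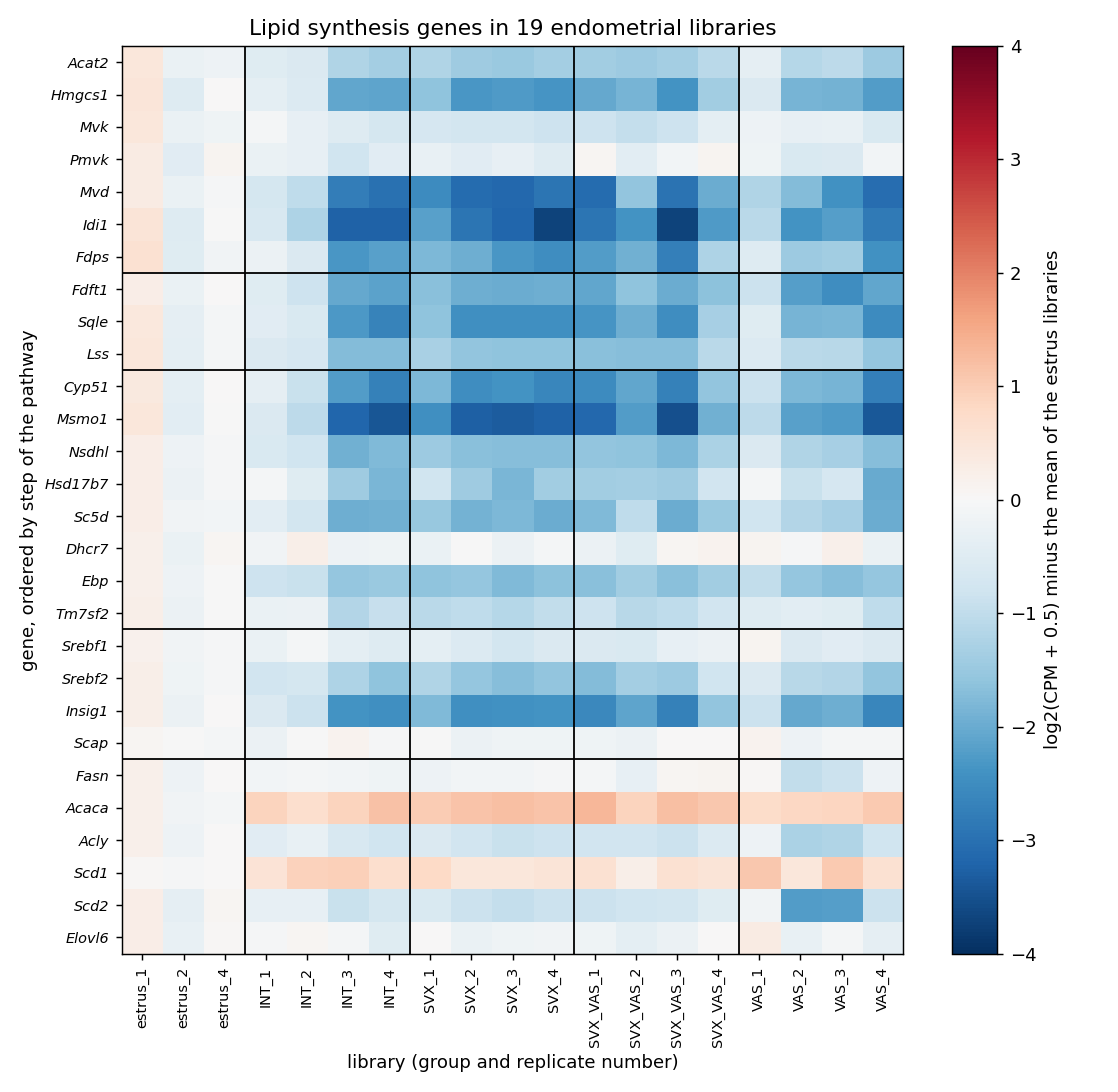
Level of each of the 28 genes (rows, by role) in each of the 19 libraries (columns) as log2(CPM + 0.5) minus the mean of the estrus libraries; blue is lower and red is higher than estrus. The cholesterol rows are blue in most mated libraries and paler in INT 1, INT 2 and VAS 1, while Dhcr7 and Scap stay near white, Fasn does so outside VAS 2 and VAS 3 (331 and 363 CPM), and Acaca and Scd1 are red.

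Because the genes of the pathway moved together, promoter windows are printed for 6 of the genes. Of these, 4 genes of different steps were among those with large falls (Idi1, Msmo1, Hmgcs1 and Insig1), and Fasn and Acat2 serve as contrast. Acat2 is a contrast in motif and not in level. It fell as well, and it is the only cholesterol enzyme with a window that lacks CCAAT, a motif described below. The 6 were chosen after their values were seen. RefSeq (GRCm38.p6) gave a window of 300 bases, from 250 before to 50 after the start, for 23 of the 28 genes. No window was available here for Fdps, Fdft1, Sqle, Scd1 and Scd2. The windows are read on the gene's strand, 5′ to 3′: Idi1 at chr13:8885356-8885655 (plus strand), Msmo1 at chr8:64733529-64733828 (minus strand), Hmgcs1 at chr13:119690101-119690400 (plus strand), Insig1 at chr5:28071162-28071461 (plus strand), Fasn at chr11:120824498-120824797 (minus strand) and Acat2 at chr17:12960676-12960975 (minus strand). RefSeq starts can differ from those of the annotation used for counting. Capitals mark matches to CCAAT, the box bound by NF-Y, a usual partner of SREBP, on either strand (ATTGG on the printed strand where the match is on the other), and to TCACNCCAC, a form of the sterol regulatory element.
Idi1: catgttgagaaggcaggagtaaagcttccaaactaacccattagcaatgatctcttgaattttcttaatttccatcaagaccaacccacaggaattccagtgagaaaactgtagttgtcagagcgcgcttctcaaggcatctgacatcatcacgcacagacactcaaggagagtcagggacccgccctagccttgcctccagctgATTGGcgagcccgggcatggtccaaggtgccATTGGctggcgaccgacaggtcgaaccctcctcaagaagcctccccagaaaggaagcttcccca
Msmo1: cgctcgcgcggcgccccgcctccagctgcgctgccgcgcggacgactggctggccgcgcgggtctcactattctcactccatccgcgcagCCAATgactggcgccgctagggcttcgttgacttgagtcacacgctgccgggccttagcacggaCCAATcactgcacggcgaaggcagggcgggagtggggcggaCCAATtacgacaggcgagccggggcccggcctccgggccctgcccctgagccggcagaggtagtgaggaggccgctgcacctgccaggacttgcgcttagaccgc
Hmgcs1: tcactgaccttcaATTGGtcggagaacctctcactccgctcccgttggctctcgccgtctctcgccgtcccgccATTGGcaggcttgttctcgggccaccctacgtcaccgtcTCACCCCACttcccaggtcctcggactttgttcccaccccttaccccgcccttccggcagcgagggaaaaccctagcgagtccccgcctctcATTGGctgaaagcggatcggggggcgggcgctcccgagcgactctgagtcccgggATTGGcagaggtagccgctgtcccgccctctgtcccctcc
Insig1: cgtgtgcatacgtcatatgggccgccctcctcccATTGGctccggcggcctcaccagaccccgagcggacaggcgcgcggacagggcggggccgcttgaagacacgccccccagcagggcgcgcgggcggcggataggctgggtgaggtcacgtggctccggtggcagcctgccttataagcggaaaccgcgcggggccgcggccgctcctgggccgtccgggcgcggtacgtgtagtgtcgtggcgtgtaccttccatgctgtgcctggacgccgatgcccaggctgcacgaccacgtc
Fasn: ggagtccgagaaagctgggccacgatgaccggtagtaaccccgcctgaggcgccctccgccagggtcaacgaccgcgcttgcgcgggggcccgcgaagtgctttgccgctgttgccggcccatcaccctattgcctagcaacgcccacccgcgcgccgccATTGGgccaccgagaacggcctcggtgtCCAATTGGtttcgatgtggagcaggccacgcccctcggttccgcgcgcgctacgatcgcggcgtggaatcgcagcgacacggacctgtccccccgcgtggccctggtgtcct
Acat2: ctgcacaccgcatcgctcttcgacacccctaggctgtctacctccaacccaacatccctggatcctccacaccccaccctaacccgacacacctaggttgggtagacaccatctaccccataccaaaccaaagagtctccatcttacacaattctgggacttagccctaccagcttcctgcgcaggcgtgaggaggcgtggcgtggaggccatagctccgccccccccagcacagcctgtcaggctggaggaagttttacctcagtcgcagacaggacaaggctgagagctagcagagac
In these windows Idi1 holds 2 CCAAT boxes, Msmo1 holds 3, Hmgcs1 holds 4 and Insig1 holds 1. Hmgcs1 also holds the only TCACNCCAC match among the 23 genes, which starts 137 bases before the transcription start. Fasn passed the cutoffs in no comparison of the edgeR fit with all libraries. It holds 3 matches to CCAAT, of which the last 2 overlap on opposite strands. Acat2, which fell in all 4 comparisons with estrus, holds none.

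Over the list, CCAAT was found in 14 of the 15 cholesterol synthesis enzymes with a window, in 2 of 4 fatty acid genes and in 3 of 4 sterol sensing genes. The same letters were found in 41.1% of the 27025 genes with a window. GGGCGG, the core of the GC box bound by Sp1, was found in 14 of 15, 1 of 4 and 4 of 4, against 38.2% of all genes. TCACNCCAC was found in 1.44% of all genes. ATCACGTGA, a palindromic form of the sterol element, was found in none of the 23 and in 0.374% of all genes. All motifs were searched on both strands. The median GC content was 62.3% over the windows of the list and 52.7% over all windows. These matches describe letters in the windows, and binding was not measured.

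The gene with the largest fall was in the mevalonate steps. Idi1, the isomerase that makes dimethylallyl diphosphate (chr13:8885501-8892451, GRCm38), stood at 29.0, 13.8 and 19.7 CPM at estrus. It stood at 12.6, 8.26, 1.65 and 1.68 CPM in INT and at 4.05, 2.20, 1.76 and 1.07 CPM in SVX. Levels were 2.17, 3.38, 1.05 and 3.75 CPM in SVX_VAS and 9.24, 3.36, 3.90 and 2.40 CPM in VAS. All 16 mated libraries lay below all 3 estrus libraries, with INT 1 close to estrus 2. The mean was 3.45-fold lower in INT (logFC -1.79 ± 0.67 SE, FDR = 0.0366), 9.18-fold lower in SVX (logFC -3.20 ± 0.70, FDR = 0.00106), 8.04-fold lower in SVX_VAS (logFC -3.01 ± 0.70, FDR = 0.00178) and 4.41-fold lower in VAS (logFC -2.14 ± 0.67, FDR = 0.0128). Of the 7 fits that each left out a library, 4 lost the call in INT for Idi1 (without estrus 1, estrus 4, INT 3 or INT 4), and the same 4 did so for Msmo1 and for Cyp51. The call of Idi1 in VAS was lost without estrus 1. The calls of Mvd, Insig1 and Tm7sf2 in INT were each lost in 3 (without estrus 1, INT 3 or INT 4). Idi1 also had the widest range among the mated libraries, 11.9-fold from SVX_VAS 3 to INT 1.

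Mvd, the decarboxylase that makes isopentenyl diphosphate (chr8:122433601-122443422), stood at 70.1, 46.6 and 54.7 CPM at estrus. It stood at 34.6, 27.6, 7.81 and 6.65 CPM in INT and at 9.42, 6.21, 6.00 and 6.95 CPM in SVX. Levels were 6.28, 18.7, 6.86 and 13.8 CPM in SVX_VAS and 24.1, 16.5, 10.1 and 6.35 CPM in VAS. No mated library reached the estrus range, and the INT libraries split into a high and a low pair. The logFC was -1.58 ± 0.55 in INT (FDR = 0.0256), -3.0 ± 0.57 in SVX (FDR = 0.00032), -2.33 ± 0.56 in SVX_VAS (FDR = 0.00228) and -2.0 ± 0.55 in VAS (FDR = 0.00563).

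Hmgcs1, the synthase that joins acetyl-CoA and acetoacetyl-CoA (chr13:119690462-119708086), was called in 3 of the 4 comparisons. At estrus it stood at 292, 146 and 211 CPM. It stood at 159, 142, 48.6 and 48.1 CPM in INT and at 68.1, 41.3, 43.2 and 40.4 CPM in SVX. Levels were 49.4, 57.4, 39.0 and 78.7 CPM in SVX_VAS and 140, 56.8, 55.3 and 44.0 CPM in VAS. INT 1 lay above the lowest estrus library, so INT and estrus overlapped, and the other 15 mated libraries lay below estrus. The logFC was -2.16 ± 0.47 in SVX (FDR = 0.000885), -1.95 ± 0.46 in SVX_VAS (FDR = 0.0022) and -1.55 ± 0.46 in VAS (FDR = 0.00908), while INT had -1.12 ± 0.46 (FDR = 0.0536). Without estrus 2, INT 1 or INT 2, Hmgcs1 was called in INT as well (FDR down to 0.0216).

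Fdps, the synthase of farnesyl diphosphate, stood at 24.3, 11.3 and 14.5 CPM at estrus and at 13.4, 10.5, 2.74 and 3.15 CPM in INT. It stood at 4.21, 3.70, 2.78 and 2.44 CPM in SVX, at 2.95, 3.83, 1.98 and 6.47 CPM in SVX_VAS and at 11.0, 5.41, 5.69 and 2.54 CPM in VAS. Again a single library, INT 1, overlapped with estrus. Fdps fell by 2.35, 2.13 and 1.43 on the log2 scale in SVX, SVX_VAS and VAS (FDR = 0.00227, 0.0046 and 0.0365), and in INT its logFC was -1.16 ± 0.55 (FDR = 0.0949). The call in VAS was lost in 5 of the 7 fits that left out a library (without estrus 1, estrus 4, VAS 2, VAS 3 or VAS 4), with an FDR of up to 0.167. Without INT 1, Fdps was called in INT. Its exons overlap those of Gm43738 on the same strand, so reads of these genes may not have been separated.

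Mvk, the mevalonate kinase, moved less. It stood at 30.1, 18.1 and 19.3 CPM at estrus, at 20.6, 17.5, 15.3 and 13.2 CPM in INT and at 13.7, 12.9, 13.1 and 12.3 CPM in SVX. Levels were 12.2, 11.2, 12.1 and 16.7 CPM in SVX_VAS and 18.9, 17.5, 17.8 and 14.3 CPM in VAS. INT 1 and VAS 1 overlapped with estrus, and SVX and SVX_VAS lay wholly below it. It fell in SVX and SVX_VAS (logFC -0.79 ± 0.19 in each, FDR = 0.00184 and 0.00219) and was not called in INT (logFC -0.43 ± 0.19, FDR = 0.0674) or VAS (logFC -0.39 ± 0.19, FDR = 0.0838). Without estrus library 1, its logFC in SVX and SVX_VAS was -0.53 and -0.52, below the size cutoff.

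Acat2, the thiolase that makes acetoacetyl-CoA, fell in all 4 comparisons, by 0.90 to 1.42 on the log2 scale, from a mean of 43.4 ± 12.7 CPM (SD, n = 3) at estrus. Without estrus 1 its logFC in INT was -0.64 (FDR = 0.0709), and the call was lost. Pmvk, the phosphomevalonate kinase, was called in none. Its mean was 28.0 ± 7.47 CPM (SD, n = 3) at estrus and 19.9 ± 3.16 CPM (SD, n = 4) in INT, with a logFC of -0.49 (FDR = 0.0422) that did not reach the size cutoff. Without estrus 2, Pmvk was called lower in INT, SVX and VAS (logFC -0.69, -0.64 and -0.59).

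The next steps lead from farnesyl diphosphate through squalene to lanosterol. Sqle, the epoxidase of squalene and a rate-limiting enzyme, stood at 131, 75.7 and 92.2 CPM at estrus and at 71.1, 64.0, 19.2 and 15.0 CPM in INT. It stood at 31.8, 17.1, 17.3 and 17.2 CPM in SVX, at 18.5, 25.0, 16.9 and 38.1 CPM in SVX_VAS and at 68.6, 26.4, 27.2 and 16.5 CPM in VAS. All mated libraries lay below all estrus libraries, and yet INT did not pass the FDR cutoff (logFC -1.24 ± 0.53, FDR = 0.0657). In SVX, SVX_VAS and VAS the logFC was -2.26, -2.02 and -1.52 (FDR = 0.00211, 0.0049 and 0.0227). The call in VAS was lost without estrus 1, VAS 2, VAS 3 or VAS 4, with an FDR of up to 0.0899, and Sqle was called in INT without INT 1 or INT 2.

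Fdft1, the squalene synthase, and Lss, the lanosterol synthase, fell in all 4 comparisons. Fdft1 had a mean of 116 ± 21.3 CPM (SD, n = 3) at estrus and of 49.6 ± 27.8 CPM (SD, n = 4) in INT, and its logFC ran from -1.92 in SVX to -1.22 in INT. Lss had means of 66.8 ± 20.2 CPM (SD, n = 3) and 30.6 ± 13.4 CPM (SD, n = 4), and its logFC ran from -1.57 to -1.08. The call of Fdft1 in INT was lost without estrus 1 or INT 4 (FDR up to 0.067), and that of Lss in VAS without estrus 1 (FDR = 0.0506). Exons of Fdft1 overlap Ctsb, and those of Lss overlap 4930483K19Rik, on the opposite strand. The library kit marked strand, and the strand setting of the counting is not given in the sources used here.

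Between lanosterol and cholesterol, Msmo1, the C4-methyl sterol oxidase (chr8:64718139-64733792), had the largest falls. It stood at 159, 86.8 and 115 CPM at estrus, at 77.2, 56.2, 12.5 and 10.4 CPM in INT and at 20.7, 11.6, 11.3 and 12.0 CPM in SVX. Levels were 12.7, 24.6, 9.69 and 30.5 CPM in SVX_VAS and 56.0, 25.6, 23.7 and 10.6 CPM in VAS. No mated library reached the estrus range. The logFC was -1.62 ± 0.63 in INT (FDR = 0.0447), -3.11 ± 0.67 in SVX (FDR = 0.000825), -2.64 ± 0.65 in SVX_VAS (FDR = 0.00288) and -2.05 ± 0.64 in VAS (FDR = 0.012). On the linear scale the mean was 8.66-fold lower in SVX than at estrus.

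Hsd17b7, the sterol 3-keto reductase, stood at 23.3, 16.3 and 18.6 CPM at estrus, at 18.2, 13.5, 6.79 and 5.04 CPM in INT and at 18.2, 10.1, 11.9 and 4.38 CPM in VAS. It stood at 10.9, 6.92, 5.05 and 6.95 CPM in SVX and at 7.05, 7.21, 6.92 and 11.0 CPM in SVX_VAS. INT 1 and VAS 1 lay within the estrus range, and SVX and SVX_VAS lay below it. Hsd17b7 fell in SVX (logFC -1.38 ± 0.44, FDR = 0.013) and SVX_VAS (logFC -1.27 ± 0.44, FDR = 0.0213), and was not called in INT (logFC -0.83 ± 0.43, FDR = 0.126) or VAS (logFC -0.80 ± 0.43, FDR = 0.125). The calls in SVX and SVX_VAS were lost without estrus library 1, at FDR = 0.0506 and 0.0774, and that in SVX_VAS also without SVX_VAS 1 or SVX_VAS 3. Hsd17b7 was called in INT without INT 1 and in VAS without VAS 1.

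A further 5 enzymes of these steps fell in all 4 comparisons. They were Cyp51, the lanosterol demethylase, Nsdhl, the sterol dehydrogenase that acts after Msmo1, Sc5d, the desaturase of the sterol ring, Ebp, the sterol isomerase, and Tm7sf2, a sterol C14 reductase. Cyp51 had a mean of 179 ± 46.7 CPM (SD, n = 3) at estrus and of 73.6 ± 51.5 CPM (SD, n = 4) in INT, where INT 1 (137 CPM) overlapped with estrus 2 (134 CPM). Its exons overlap Akap9 on the opposite strand, and those of Tm7sf2 overlap Vps51 on the same strand. The call of Tm7sf2 in VAS was lost without estrus 1 or VAS 4 (FDR up to 0.0928), and that of Sc5d in INT without estrus 1 (FDR = 0.064). Ebp had the smallest FDR of the cholesterol enzymes in each of the 4 comparisons. Its mean was 71.4 ± 10.8 CPM (SD, n = 3) at estrus and 31.6 ± 8.43 CPM (SD, n = 4) in INT, and the logFC was -1.17 ± 0.19 in INT (FDR = 0.000134) and -1.67 ± 0.19 in SVX (FDR = 4.81e-06).

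Dhcr7, which reduces the last double bond on the way to cholesterol, was the exception in this step. Its mean was 21.8 ± 3.55 CPM (SD, n = 3) at estrus and lay between 19.5 and 21.9 CPM in the mated groups. The logFC lay between -0.16 and 0.01, each with an SE of 0.17, and the FDR was at least 0.434. A p above the cutoff does not show that the groups were alike. The range over the 16 mated libraries was 1.65-fold.

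**Figure D2:**
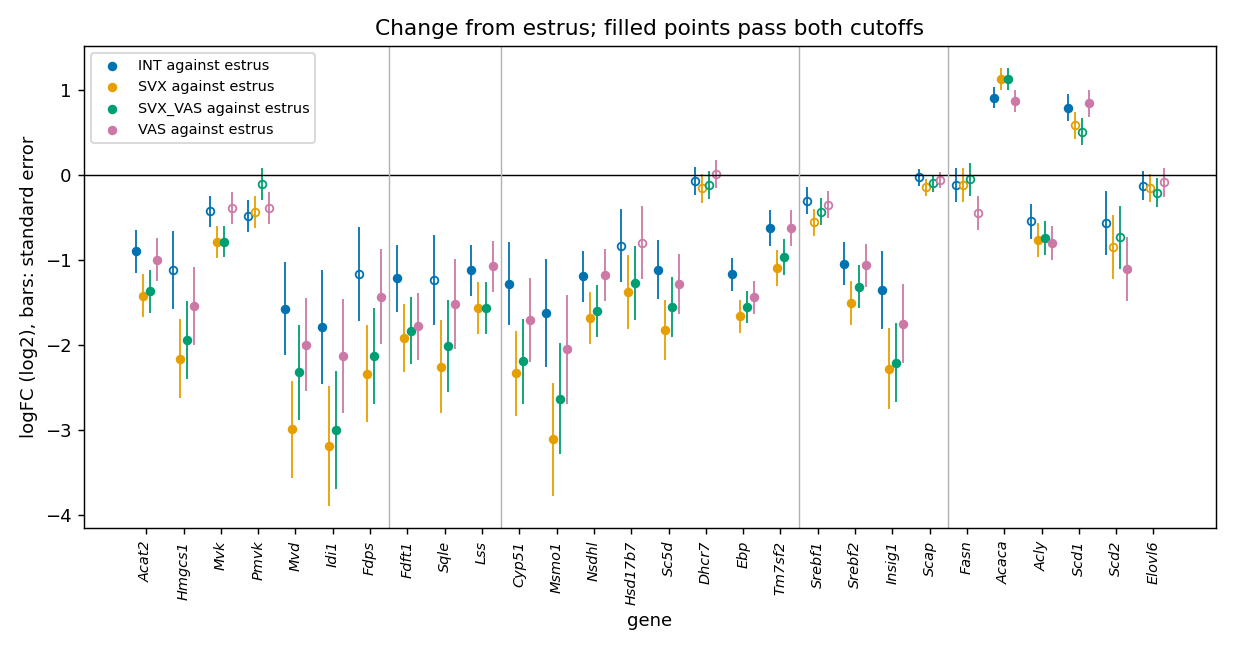
logFC with its standard error (y axis, log2) of each gene (x axis, by role) in the 4 comparisons with estrus; filled points pass both cutoffs. The points of the cholesterol enzymes lie below 0, apart from Dhcr7 in VAS at 0.01, and reach -3.20 for Idi1 in SVX; Acaca and Scd1 lie above 0 in all 4 comparisons.

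In the sterol sensing group, the gene for the sterol-regulated factor and its brake moved with the enzymes. Srebf2, the factor that mainly serves cholesterol synthesis, stood at 197, 152 and 163 CPM at estrus and between 50.1 and 114 CPM in the mated libraries. The groups did not overlap, and the logFC was -1.05 ± 0.25 in INT (FDR = 0.00288) and -1.51 ± 0.25 in SVX (FDR = 0.000111). Insig1, itself a known target of SREBP, stood at 108, 77.5 and 92.6 CPM at estrus and at 61.1, 50.1, 16.9 and 16.3 CPM in INT. It lay between 13.8 and 50.1 CPM in the other mated groups, below estrus throughout. Its logFC was -1.36 ± 0.46 in INT (FDR = 0.0229) and -2.28 ± 0.47 in SVX (FDR = 0.000634).

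Srebf1, the factor that mainly serves fatty acid synthesis, and Scap, the escort, passed both cutoffs in no comparison. Srebf1 had means of 113 ± 13.4 CPM (SD, n = 3) at estrus and 91.6 ± 11.7 CPM (SD, n = 4) in INT, and its logFC of -0.56 in SVX (FDR = 0.00636) and -0.44 in SVX_VAS (FDR = 0.0285) fell short of the size cutoff. Without estrus 2, estrus 4 or SVX 1, Srebf1 was called lower in SVX. Scap had means of 87.0 ± 4.70 CPM (SD, n = 3) at estrus and 85.1 ± 9.48 CPM (SD, n = 4) in INT, with a logFC of -0.03 ± 0.10. Its range over the mated libraries, 1.32-fold, was the narrowest of the 28 genes. Exons of Srebf1 overlap Rai1, and those of Scap overlap 5830462I19Rik, on the opposite strand.

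Single genes of fatty acid synthesis went in different directions. Acaca, the acetyl-CoA carboxylase that makes malonyl-CoA (chr11:84129672-84401651), stood at 128, 101 and 105 CPM at estrus and at 205, 176, 206 and 249 CPM in INT. It stood at 226, 245, 258 and 244 CPM in SVX, at 277, 208, 258 and 232 CPM in SVX_VAS and at 183, 196, 203 and 230 CPM in VAS. Every mated library lay above every estrus library. The mean was 1.88-fold higher in INT (logFC 0.91 ± 0.13, FDR = 3.87e-05), 2.18-fold higher in SVX (logFC 1.13 ± 0.13, FDR = 4.09e-06), 2.19-fold higher in SVX_VAS (logFC 1.13 ± 0.13, FDR = 5.33e-06) and 1.82-fold higher in VAS (logFC 0.87 ± 0.13, FDR = 4.06e-05).

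Scd1, a stearoyl-CoA desaturase, stood at 28.1, 26.1 and 27.2 CPM at estrus and at 39.6, 51.8, 53.0 and 43.1 CPM in INT. It stood at 47.9, 37.4, 37.7 and 39.4 CPM in SVX, at 41.8, 31.7, 41.6 and 39.1 CPM in SVX_VAS and at 57.7, 37.5, 57.1 and 41.8 CPM in VAS. All 16 mated libraries lay above estrus, and the 3 estrus libraries were within 1.08-fold of each other. Scd1 rose in INT (logFC 0.79 ± 0.16, FDR = 0.000708) and VAS (logFC 0.84 ± 0.16, FDR = 0.000347). In SVX (logFC 0.58 ± 0.16, FDR = 0.00483) and SVX_VAS (logFC 0.51 ± 0.16, FDR = 0.0125) it passed the FDR cutoff and not the size cutoff, which in SVX it missed only past the second decimal. Scd1 was called in SVX without estrus 1, SVX 2, SVX 3 or SVX 4, and in SVX_VAS without SVX_VAS 2.

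Scd2, the other main desaturase and a close paralog, stood at 1362, 868 and 1193 CPM at estrus and at 897, 884, 609 and 689 CPM in INT. It stood at 729, 616, 576 and 613 CPM in SVX, at 624, 641, 676 and 794 CPM in SVX_VAS and at 1018, 237, 244 and 622 CPM in VAS. INT 1, INT 2 and VAS 1 overlapped with estrus. The VAS group held both the highest and the lowest of the mated libraries, and the low values were those of VAS 2 and 3. Scd2 was called in VAS alone (logFC -1.11 ± 0.38, FDR = 0.0195), and the call was lost without estrus 1, VAS 2 or VAS 3. With VAS 2 and 3 left out, its logFC was -0.48 (FDR = 0.0885). Reads of these paralogs, Scd1 and Scd2, may not all have been separated, and this was not measured.

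Acly, which makes cytosolic acetyl-CoA from citrate for both pathways, stood at 384, 289 and 342 CPM at estrus and at 248, 272, 213 and 192 CPM in INT. It stood at 223, 198, 183 and 190 CPM in SVX, at 196, 198, 185 and 228 CPM in SVX_VAS and at 291, 141, 147 and 195 CPM in VAS. VAS 1 lay just above the lowest estrus library, and the other 15 mated libraries lay below. Acly fell in SVX (logFC -0.77 ± 0.20, FDR = 0.00377), SVX_VAS (logFC -0.75 ± 0.20, FDR = 0.00505) and VAS (logFC -0.81 ± 0.20, FDR = 0.00288), and in INT its logFC of -0.55 (FDR = 0.0327) fell short of the size cutoff, which it passed without estrus 2, INT 1 or INT 2. Without VAS 2 and 3 its logFC in VAS was -0.48, below the size cutoff.

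Fasn, the fatty acid synthase, and Elovl6, the elongase of its products, were called in no comparison of the edgeR fit with all libraries. Fasn stood at 752, 574 and 663 CPM at estrus and between 519 and 713 CPM in the mated libraries other than VAS 2 and 3, which stood at 331 and 363 CPM. Its logFC was -0.13 ± 0.20 in INT (FDR = 0.647) and -0.45 ± 0.20 in VAS (FDR = 0.0614). Without VAS 1 it was called lower in VAS (logFC -0.65, FDR = 0.00419). Elovl6 had means of 77.1 ± 14.7 CPM (SD, n = 3) at estrus and 70.4 ± 10.9 CPM (SD, n = 4) in INT, with a logFC of -0.13 ± 0.17. Its exons overlap Gm35986 on the opposite strand.

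**Figure D3:**
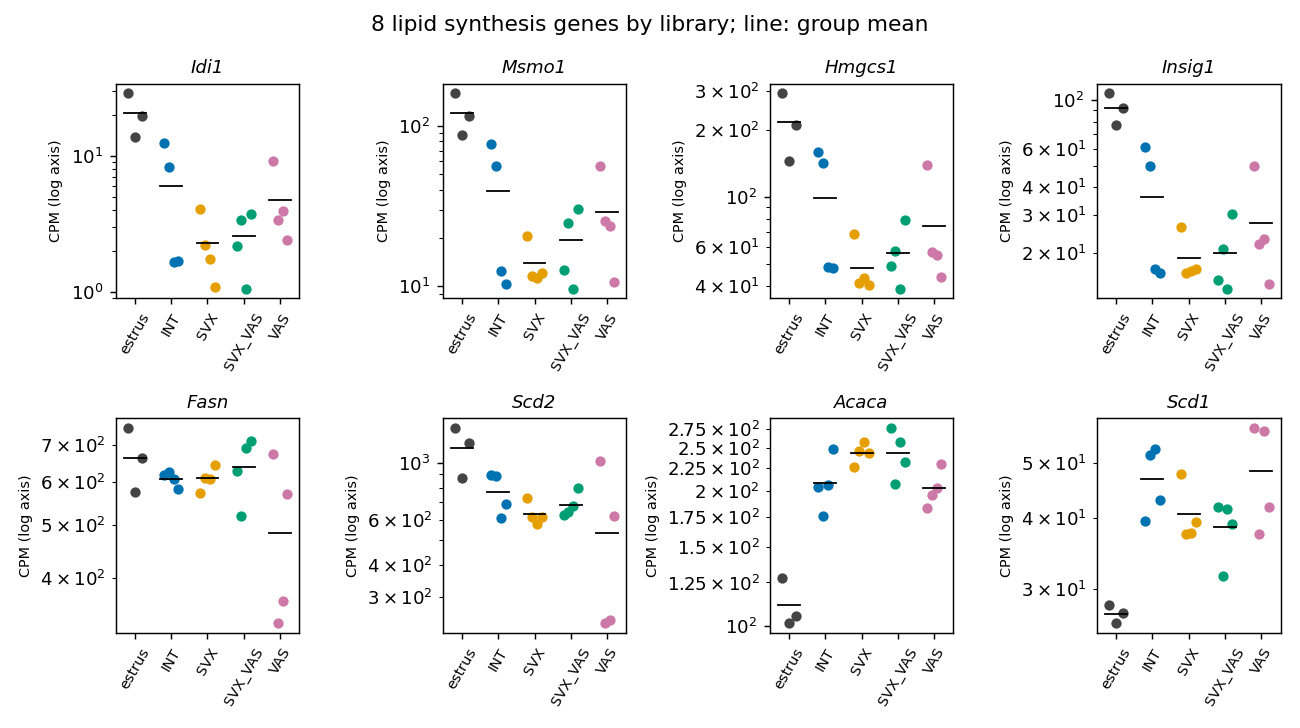
CPM (log axis) of 8 of the genes in each library, by group, with a line at the group mean. In INT the 2 upper points of Idi1, Msmo1, Hmgcs1 and Insig1 are INT 1 and INT 2, while Acaca and Scd1 lie above estrus in all 16 mated libraries and the lowest points of Fasn and Scd2 are VAS 2 and VAS 3.

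Levels per length placed the desaturase and the entry enzymes on top. At estrus the mean level of Scd2 was 209 CPM per kilobase of exon, followed by 66.9 for Hmgcs1, 64.1 for Acly and 60.6 for Fasn on the same scale. The lowest levels per kilobase at estrus were those of Dhcr7 (3.75), Hsd17b7 (3.80) and Fdps (3.97). Neither the lowest 3 nor Hmgcs1, Acly and Fasn differed among themselves beyond their spread between libraries. In INT the level per kilobase was 141 for Scd2, 55.5 for Fasn, 43.8 for Acly and 30.7 for Hmgcs1, with an SD of 18.3 for Hmgcs1 over the 4 libraries. In SVX, Idi1 was the lowest of the 28 genes, at 0.648 CPM per kilobase.

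Within the mated groups, the cholesterol enzymes ranked the libraries alike. INT 1 and INT 2 lay above INT 3 and INT 4 in all 18 enzymes. The 3 highest of the 16 mated libraries were INT 1, INT 2 and VAS 1 in 14 of the 18. SVX 1 was the highest SVX library in 15, SVX_VAS 4 the highest of its group in 15, and VAS 4 the lowest VAS library in 15. As a median over the 18 enzymes, the log2 difference from the estrus mean was -0.43, -0.63, -1.93 and -1.87 in INT 1 to 4. It lay between -1.82 and -1.56 in SVX and between -1.88 and -1.31 in SVX_VAS, and was -0.56, -1.34, -1.36 and -2.0 in VAS 1 to 4. The enzymes of a library share its depth and its tissue, so they are not replicates.

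Markers of epithelium were also lower in the mated libraries, and in INT they split into the same pairs as the cholesterol enzymes. The 7 epithelial markers (Epcam, Krt8, Krt18, Krt19, Cdh1, Cldn3 and Cldn7) summed to 3374 to 4578.5 CPM at estrus, 753 to 2389.7 in INT, 801 to 1083 in SVX, 951 to 1979.5 in SVX_VAS and 507 to 2076.5 in VAS, and none was at 0 in any library. Of the 7, 5 fell in INT, 6 in SVX, 6 in SVX_VAS and 6 in VAS, all against estrus. The sums were 2389.7 and 1976 CPM in INT 1 and INT 2 and 753 and 1072 CPM in INT 3 and INT 4, so that INT 1 and INT 2 were the higher pair here too. SVX_VAS 2 went another way, with epithelial markers at 1979.5 CPM beside an Idi1 level of 3.38 CPM. VAS 2 and VAS 3 did too: they had the lowest sums of all libraries, 611 and 507 CPM, while their medians over the cholesterol enzymes (-1.34 and -1.36) lay above those of VAS 4 and of every SVX library. The 6 estrogen response markers (such as Ltf, lactoferrin) summed to 9784 to 12278 CPM at estrus and to 8122, 2936, 223 and 273 CPM in INT 1 to 4. The sums were 213 to 662 CPM in SVX, 253 to 8688 CPM in SVX_VAS and 211 to 2434 CPM in VAS. Of the 6, 2 fell in INT, 6 in SVX (median logFC -4.92), 2 in SVX_VAS and 3 in VAS. The sum of these markers in SVX_VAS 2 was 8688 CPM, above that of INT 1, beside a median over the cholesterol enzymes of -1.58.

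Counts of the other marker lists stand beside the 20.9% of all tested genes higher and 12.7% lower in INT. Of 5 endothelial markers, 5 rose in each comparison with estrus, and their sum went from 151 to 223 CPM at estrus to 556 to 874 CPM in INT. Of 8 stromal markers, 5 rose in INT, with sums of 7911 to 10382 CPM. Of 6 glandular epithelial markers 4 rose in INT, of 6 progesterone response markers 5 rose, of 6 smooth muscle markers 1 rose, of 5 macrophage markers 4 rose and 1 fell, and of 6 proliferation markers none was called in INT (1 fell in SVX, 3 in SVX_VAS and 1 in VAS). Of 3 mesothelium markers, none was called in INT and 2 fell in SVX. The only tested neutrophil marker fell in all 4 comparisons with estrus (logFC -2.54 in INT and -5.42 in SVX). The 4 neutrophil markers summed to 9.40 to 11.4 CPM at estrus and to 5.07, 5.36, 1.48 and 1.61 CPM in INT 1 to 4. In VAS 1 to 4 the sums were 6.54, 14.2, 21.2 and 3.32 CPM, so that VAS 2 and VAS 3 lay above estrus. The only tested red blood cell marker rose in SVX and SVX_VAS. The part of these markers in the results for the lipid genes was not tested.

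**Figure D4:**
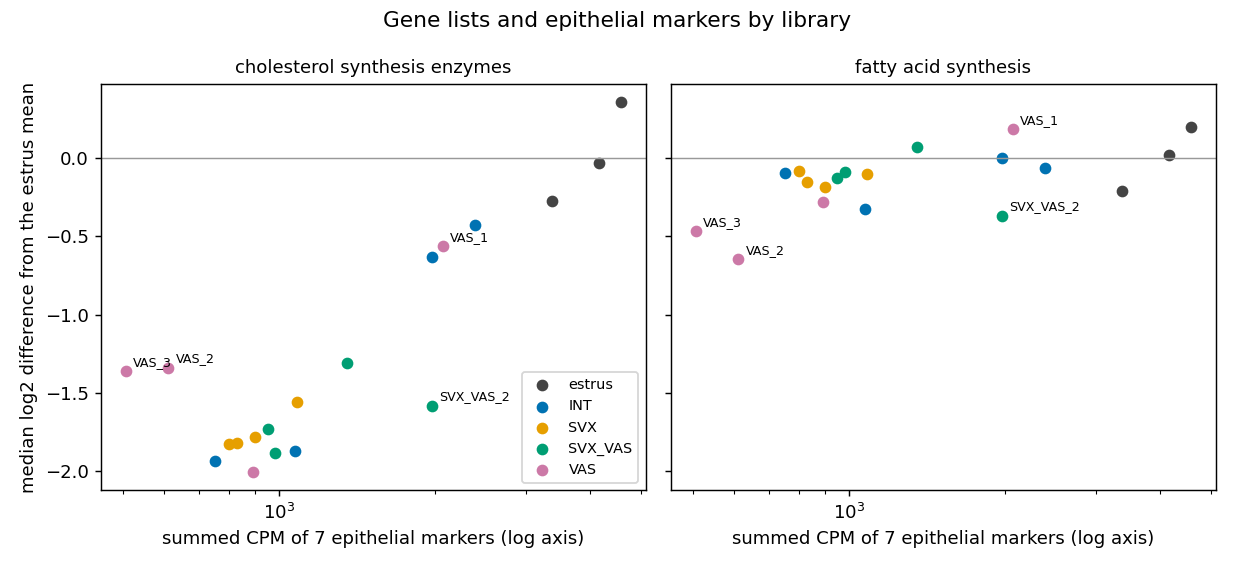
Median log2 difference from the estrus mean (y axis) of the 18 cholesterol enzymes (left) and the 6 fatty acid genes (right) against the summed CPM of 7 epithelial markers (x axis, log scale), 1 point per library. On the left the mated libraries with the highest marker sums include INT 1, INT 2 and VAS 1 between -0.63 and -0.43 and SVX_VAS 2 at -1.58, and on the right the mated libraries lie between -0.65 and 0.18.

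Set beside a single epithelial gene in the same library, the enzymes differed. The ratio of Cyp51 to Epcam (both in CPM) was 0.289 to 0.335 at estrus, 0.285 to 0.436 in INT and 0.294 to 0.379 in SVX, so that these groups overlapped. It was 0.140 to 0.361 in SVX_VAS and 0.286 to 0.743 in VAS. The ratio of Idi1 to Epcam was 0.0296 to 0.0427 at estrus and 0.0349, 0.0306, 0.0195 and 0.0180 in INT 1 to 4, with INT 3 and INT 4 below estrus. The ratio of Fasn to Epcam was 1.11 to 1.23 at estrus and 1.72 to 7.14 in INT. With Cdh1 in place of Epcam, the ratio of Cyp51 was 0.167 to 0.231 at estrus, 0.0940 to 0.268 in INT and 0.175, 0.126, 0.148 and 0.129 in SVX, where 3 of the 4 libraries lay below estrus. The ratio of Msmo1 to Epcam was 0.186 to 0.234 at estrus and 0.111 to 0.153 in SVX, without overlap. In INT it was 0.215, 0.208, 0.148 and 0.111, with INT 1 and INT 2 within the estrus range. In VAS 2 and VAS 3 the ratios lay above estrus for Msmo1 (0.331 and 0.365) and for Idi1 (0.0435 and 0.0602). The ratios are descriptions of bulk tissue, and how much of each gene's RNA came from epithelium was not measured.

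Against INT, none of the 28 genes was called by edgeR in SVX, SVX_VAS or VAS, where 0% of all tested genes were called in each. DESeq2 and limma-voom also called none of the 28, although limma-voom called 9.66% of all tested genes in VAS. limma-voom with quality weights called 5 in VAS, where it called 27.5% of all tested genes, and none in SVX or SVX_VAS. At an unadjusted p under 0.05, 10 genes were lower in SVX than in INT, against 3.56% of all tested genes, and all 10 were cholesterol enzymes (Acat2, Hmgcs1, Mvd, Idi1, Fdps, Cyp51, Msmo1, Sc5d, Ebp and Tm7sf2). At the same limit, 2 genes differed in SVX_VAS, Ebp lower (against 1.28% of all tested genes lower) and Pmvk higher, and none in VAS (6.28% of all tested genes lower). The adjusted values gave no call. For Msmo1, for example, the logFC was -1.49 ± 0.61 in SVX against INT (FDR = 0.9997), with each SVX library at or below 20.7 CPM and the INT libraries at 77.2, 56.2, 12.5 and 10.4 CPM. The SVX libraries therefore lay inside the INT range. These 3 comparisons share the 4 INT libraries.

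Genes around the pathway were taken from lists, whose counts stand beside the 12.7% of all tested genes that were lower and the 20.9% that were higher in INT. Of 10 other isoprenoid genes, 2 fell and none rose in INT against estrus, with Nus1, a subunit of the enzyme that makes dolichol precursors, at a logFC of -0.90 ± 0.18 (FDR = 0.00061) and from 158 to 183 CPM at estrus to 70.4 to 115 CPM in INT. Of 17 genes of SREBP processing and cholesterol handling, 2 fell and 4 rose in INT, shares close to those of all genes. Stard4, a sterol carrier, had a logFC of -0.96 ± 0.24 (FDR = 0.00423). Soat1, which esterifies cholesterol for storage, rose from 39.3, 53.4 and 65.3 CPM at estrus to 204, 188, 277 and 334 CPM in INT (logFC 2.25 ± 0.22, FDR = 3.28e-06). The 2 groups did not overlap for Soat1.

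Of 20 other lipogenic genes, 9 fell and 4 rose in INT against estrus, and the share that rose was close to that of all genes. Fads2, the desaturase that starts the making of polyunsaturated fatty acids, rose from 4.16, 5.35 and 6.60 CPM at estrus to 40.2, 41.5, 66.0 and 75.8 CPM in INT (logFC 3.38 ± 0.30, FDR = 1.61e-06). Acsl3, an acyl-CoA synthetase, stood at 211, 151 and 170 CPM at estrus and at 68.1, 56.0, 21.2 and 22.7 CPM in INT (logFC -2.08 ± 0.38, FDR = 0.000319). Both were without overlap between the groups, and the INT libraries of Acsl3 fell into the same high and low pair as the cholesterol enzymes. None of the genes of these lists was called against INT by edgeR.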

How the data were processed

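The authors trimmed reads with AdapterRemoval version 2, aligned them with STAR and counted them per gene with featureCounts on GRCm38 (TruSeq Stranded total RNA kit). The strand setting is not given in the sources used here. The deposited values are whole-number counts for 49089 genes in 19 libraries, of which 48349 were given a symbol, and 0 columns of per-sample values were left unused. edgeR 4.0.16 in R 4.3.3 was used with TMM scaling, genes with 3 CPM in at least 3 libraries, 1 fit over the 5 groups, glmQLFTest, Benjamini-Hochberg FDR of at most 0.05 and logFC of at least 0.58 in size. limma 3.58.1 and DESeq2 1.42.0 served as alternatives, beside other scalings and filters, glmTreat, a replicate block, fits of the compared groups alone and fits without each library. Totals of 12661266 to 31781270 counts per library set the precision, and p-values measure only the spread between these pooled samples, which may be partly technical. All 28 genes are named, with each library's value where calls differed or changes were largest, and from each list around the pathway the called genes with the largest rise and fall in INT. The members and lists were chosen with earlier results of these data known. The epithelial list held 1 gene beside the 7 named, which was left out of its sums and counts and is not reported here. Sequences are from RefSeq.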

Additional observations from a re-analysis of the deposited data

Results flagged for a closer look

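Within groups of 4 libraries, a single library stood apart from the other 3 by Dixon's test in 12 of the 112 groups searched, where chance alone marks about 1 in 20 groups. The genes share their libraries, so the groups are not independent and the 12 cannot be set against that rate. SVX 1 was the high library for Hmgcs1 (68.1 CPM against 40.4 to 43.2), Fdft1 (35.4 CPM against 28.5 to 29.1), Sqle (31.8 CPM against 17.1 to 17.3), Lss (26.1 CPM against 21.1 to 21.6), Msmo1 (20.7 CPM against 11.3 to 12.0), Nsdhl (12.9 CPM against 10.8 to 10.9) and Insig1 (26.4 CPM against 16.2 to 17.0). VAS 1 was the high library for Hmgcs1 (140 CPM against 44.0 to 56.8) and Fdft1 (62.9 CPM against 19.9 to 26.8). SVX_VAS 4 was the high library for Lss (30.4 CPM against 19.5 to 20.2) and Hsd17b7 (11.0 CPM against 6.92 to 7.21). INT 2 was the high library for Dhcr7 (25.4 CPM against 18.8 to 19.6). All 12 were high libraries, and all but Dhcr7 and Insig1 concern enzymes that fell against estrus in at least SVX and SVX_VAS. SVX 1 also had the highest epithelial marker sum of its group, at 1083 CPM, and its part in these values was not tested.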

How the results depend on the processing

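No gene changed the sign of a called value under any alternative run. With glmTreat at the same logFC, 3 of the 28 genes were called in INT, a share below the 19.4% of all tested genes, and 12 in VAS (25.1% of all) against estrus. limma-voom with quality weights called 5 genes lower in VAS against INT (Hmgcs1, Fdft1, Fasn, Acly and Scd2), where it called 27.5% of all tested genes. With fits of the compared groups alone, 10, 22, 21 and 17 genes were called against estrus in INT, SVX, SVX_VAS and VAS (37.6%, 46.7%, 43.4% and 33.2% of all tested genes, so that INT was close to that share), and 0 in each comparison with INT. Leaving out VAS 2 and 3 together, chosen after seeing the data, gave 12 in VAS against estrus. Leaving out a single library gave 6 (without estrus 1) to 20 (without INT 1) in INT, with 9 without INT 3 and 8 without INT 4, 19 to 22 in SVX (37.5% to 42.4% of all tested genes), 18 to 21 in SVX_VAS (33.5% to 39.9%) and 14 to 22 in VAS (35.8% to 47.9%) against estrus, and 0 to 1 in VAS against INT, the 1 being Scd2 without VAS 1. Same-numbered libraries did not deviate together consistently, though some pairs did (r from -0.688 to 0.58, over 0.1 in 11 of 24 pairs). With the replicate number as a block, 17, 20, 20 and 19 genes were called against estrus in INT, SVX, SVX_VAS and VAS (32.6%, 40.2%, 37.2% and 39.4% of all tested genes). That block gave 0 calls in each comparison with INT. Upper quartile scaling moved the median logFC of all genes up by 0.129 to 0.198 against estrus and left the counts within 1.5 times. With 3 to 4 pooled libraries a group, changes that miss the cutoffs may have gone undetected, and genes near 1 CPM, such as Idi1 in SVX, rest on few counts.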

Other observations

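Genes of storage and breakdown of fatty acids were also listed. Of 10 genes of triglyceride assembly, 3 fell and 1 rose in INT against estrus, where 12.7% of all tested genes were lower and 20.9% higher. Lpin3, a phosphatidate phosphatase, had a logFC of -1.13 ± 0.23 (FDR = 0.000678), and Agpat3, an acyltransferase of phospholipid and triglyceride synthesis, had a logFC of 0.79 ± 0.11 (FDR = 2.76e-05). Of 13 tested genes of fatty acid oxidation, none fell and 2 rose, a share below that of all genes, with Ppara, a nuclear receptor that drives oxidation genes, at a logFC of 1.53 ± 0.33 (FDR = 0.0012). The median logFC was -0.52 for triglyceride assembly and -0.20 for oxidation, against -0.013 over all tested genes.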
